A study of Mus musculus with 12 samples.

Results

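The genes described here encode the proteins of the cytosolic ribosome of the mouse. Members were all genes with a mouse symbol made of Rpl or Rps and a number, with at most 1 suffix letter and 1 further digit, plus Rpsa, Rplp0, Rplp1 and Rplp2. Symbols matched 89 genes, of which 6 annotated as pseudogenes were left out. The remaining 83 members, 51 of the large subunit (Rpl) and 32 of the small subunit (Rps), were among 53801 genes in the files. The rule used names alone and no measured value. Of the members, 81 passed the filter on low counts and were tested. Rpl3l, with 7 counts over all libraries, and Rpl10l, with 1, were not tested.

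Counts came from polyadenylated RNA of the maxillary prominence, the paired facial swelling of neural crest mesenchyme and covering epithelium that forms the upper jaw and palatal shelves. The groups were wild-type C57BL/6 embryos, untreated and of 1 strain, taken at 4 stages with 3 libraries each and 12 in all: E10.5 (embryonic day), then E11.5, then E12.5, and last E14.5. Tissue was pooled from 7 littermates, and the labels do not say whether per library or per stage, so the p-values below measure the spread between these libraries. The title of E14.5 replicate 1 names 2 parts, used here as 1 library. The E14.5 samples were registered in a block apart from those of the earlier stages. Whether they were also prepared or sequenced apart is not known here, and any such difference cannot be told apart from the stage.

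Ribosomal proteins fold and hold the ribosomal RNA, and most mRNAs that encode them begin with an unbroken run of pyrimidines at the cap, the terminal oligopyrimidine tract. Through that tract the kinase mTOR and the cap-binding protein LARP1 control their translation together, while Myc family factors raise their transcription. The embryonic face is known to be sensitive to ribosome supply: inherited loss of 1 copy of a ribosomal protein gene causes Diamond-Blackfan anaemia in people, which can include cleft palate, and loss of Rpl38 in Tail-short mice alters the skeleton and the translation of Hox mRNAs.

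The windows around the annotated starts of 8 members are shown, because they set the 4 members with the most negative fold change over the course beside the 4 with the least negative one, among members with an entry in the RefSeq promoter table (GRCm38.p6). The pair Rpl39 and Rpl39l is added as a parent gene that fell and its paralog that rose. Each runs 5′ to 3′ on the coding strand from 30 bases before to 20 bases from the start, and capitals mark the longest pyrimidine run that comes within 5 bases of it.
Rpl35, chr2:39005112-39005161, minus strand: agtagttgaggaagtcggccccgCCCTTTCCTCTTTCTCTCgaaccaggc
Rpl38, chr11:114668550-114668599, plus strand: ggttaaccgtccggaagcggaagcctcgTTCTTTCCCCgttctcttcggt
Rpl41, chr10:128549149-128549198, minus strand: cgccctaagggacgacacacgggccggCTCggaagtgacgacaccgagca
Rps27l, chr9:66946056-66946105, plus strand: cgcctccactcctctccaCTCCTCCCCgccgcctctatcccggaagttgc
Rps10, chr17:27635225-27635274, minus strand: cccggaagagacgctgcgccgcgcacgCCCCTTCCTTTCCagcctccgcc
Rps4x, chrX:102189372-102189421, minus strand: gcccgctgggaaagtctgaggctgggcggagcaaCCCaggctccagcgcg
Rplp0, chr5:115559437-115559486, plus strand: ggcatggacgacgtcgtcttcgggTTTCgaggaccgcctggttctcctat
Rps13, chr7:116334171-116334220, minus strand: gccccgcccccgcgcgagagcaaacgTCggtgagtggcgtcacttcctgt
Rpl39, chrX:37085203-37085252, minus strand: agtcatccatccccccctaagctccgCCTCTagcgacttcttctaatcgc
Rpl39l, chr16:10170198-10170247, plus strand: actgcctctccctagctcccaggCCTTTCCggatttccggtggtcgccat

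Both groups of 4 hold members with a long run and members without one. A run of at least 8 pyrimidines stood near 24 of the 75 starts listed for 63 members (32.0%), against 9.62% of 32469 starts of all other genes. The letters CTTT within 10 bases of the start were found on the coding strand at 22.7% of member starts and 8.21% of other starts, and on the opposite strand at 5.33% of member starts and 7.80% of other starts. A CTTT can lie inside a longer pyrimidine run, so these counts overlap. The 24 tested members with such a run had a median log2 fold change of -1.08 between E14.5 and E10.5, and the 37 others in the table had one of -0.97. Across these 61 members run length and fold change had a Spearman correlation of -0.17. An annotated start may differ from the start used in this tissue, so a match or its absence describes this window only.

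Ribosomal protein mRNA was among the most abundant in these libraries and dropped at the end of the course. Members held 8.72%, 9.66% and 7.33% of all counts in genes in the E10.5 libraries (replicates 1, 2 and 3), 8.32%, 8.48% and 8.56% at E11.5, 8.95%, 9.76% and 6.26% at E12.5, and 5.54%, 6.30% and 5.78% at E14.5. The mean share was 5.87% ± 0.389 at E14.5 and 8.57% ± 1.17 at E10.5 (SD, n = 3 each). It stood close to the E10.5 level at E11.5 (8.45% ± 0.122) and E12.5 (8.32% ± 1.83). The highest E14.5 library lay just above the lowest E12.5 library and below the other 8. Large subunit members took 3.08% to 3.45% at E14.5 and 4.16% to 5.40% at E10.5. Small subunit members took 2.46% to 2.85% at E14.5 and 3.17% to 4.25% at E10.5. In bulk tissue, fewer cells of a type and less RNA per cell cannot be told apart.

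**Figure D1:**
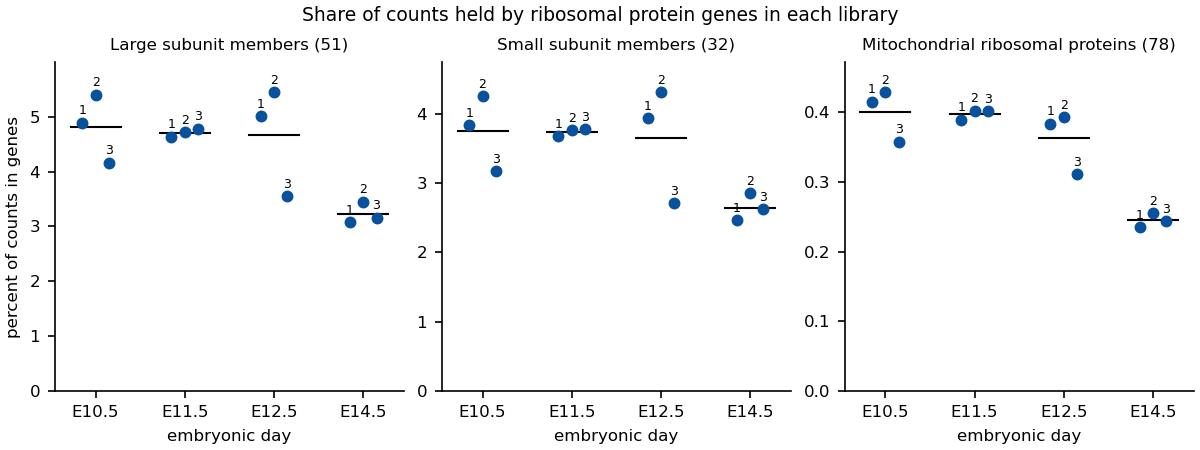
Percent of counts in genes (y axis, from 0) held by 51 large subunit members, 32 small subunit members and 78 mitochondrial ribosomal protein genes, by embryonic day (x axis). Points are libraries numbered by replicate and bars are stage means. Replicate 3 of E10.5 and of E12.5 sits below its stage mates in all 3 panels, and the mean is lowest at E14.5 in each.

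Replicate 3 of E10.5 and replicate 3 of E12.5 stood apart from their stage mates. In E12.5 replicate 3, 79 of 81 members lay below the mean of the other 2 libraries, with a median log2 ratio of -0.64. In E10.5 replicate 3 it was 74 of 81, with a median of -0.32. Alignments that fell outside annotated genes made up 4.88% of the total in E10.5 replicate 3, against 2.67% and 1.92% in its mates, while E12.5 replicate 3 (5.25%) lay within the 5.03% to 5.43% of its own. Results below are given with and without these libraries where they matter.

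Depth was 28294837 to 33941430 counts in genes a library. Fold changes below are from edgeR's quasi-likelihood test with TMM scaling on 18365 tested genes, and "called" means an adjusted p (Benjamini-Hochberg over all tested genes) under 0.05. Levels are CPM, each count scaled by the total count in genes of its library, without TMM factors. The 2 scales differ: the median log2 fold change of all tested genes between E14.5 and E10.5 was 0.06 with TMM and 0.38 with total counts, so a member with equal CPM at both stages has a negative fold change.

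Between E14.5 and E10.5, most ribosomal protein genes fell. Of 81 tested members, 76 were lower, 2 were higher (Rpl39l and Rpl24) and 3 were not called, Rps4x and Rps13 among them. Among all tested genes 33.8% were called lower and 36.6% higher. The members' median log2 fold change was -0.97, with quartiles of -1.26 and -0.69, against 0.06 over all tested genes. Of 49 large subunit members tested, 47 were lower and 2 higher (median -1.06), and of 32 small subunit members 29 were called, each lower (median -0.83). With total counts in place of TMM factors, 63 members were lower and 2 higher (median -0.63). Of all 18365 tested genes 4117 were then lower and 8821 higher. Without E10.5 replicate 3 and E12.5 replicate 3, a choice made after seeing the data, 79 were lower and 2 higher (median -1.11). With each library's percentage of alignments outside genes added to the model, 21 were called, each lower (median -0.46). In that fit 3909 of 18365 tested genes were lower, a proportion not far below that of the members, and 3576 were higher (median -0.02). The share of alignments outside genes was 5.78% to 6.21% at E14.5 and 1.92% to 4.88% at E10.5, so it and the stage can hardly be told apart.

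The median fold change was most negative in the last step. Between E11.5 and E10.5, 1 member was higher (Rpl39l) and 1 lower (Rps2), with a median of -0.06, where 12.2% of all genes were called higher and 12.9% lower. Between E12.5 and E11.5, 3 were higher and 10 lower, with a median of -0.19, where 27.1% of all genes were higher and 22.2% lower. The 3 risers were Rpl23a, Rplp2 and Rpl13a, of which Rpl13a (0.31) lost its call in 7 of the 12 fits that left out 1 library, and also with no filter and with the compared stages alone. With total counts 6 were higher and 4 lower in that step, against 6896 and 1880 of all tested genes. Between E14.5 and E12.5, 3 were higher and 54 lower, with a median of -0.73, where 23.0% of all genes were higher and 24.0% lower. Rpl39l and Rpl24 were among the 3 risers, but the call of Rpl24 (1.12) was lost in 4 of the 12 fits that left out 1 library. It was lost too without both low libraries (0.87), with DESeq2, with no filter, with the replicate block (1.08) and with the covariate for alignments outside genes. Tested for a difference between any of the 4 stages at once, 76 of 81 members were called, against 81.6% of all tested genes. By mean CPM, E14.5 was the lowest of the 4 stages for 74 of 81 members. For 44 members (54.3%) all 3 E14.5 libraries lay under all 9 earlier ones, against 14.0% of all tested genes. The counts of the first 2 steps moved with the libraries left out. Without both low libraries, 2 members were higher and 19 lower in the first step (median -0.20), and 14 were higher and 9 lower in the second (median 0.03). Without E12.5 replicate 3 alone, 8 members were higher and 5 lower in the second step (median -0.0038), and 5, 5 and 4 were lower without E11.5 replicate 1, 2 and 3. In the last step, 72 were lower and 1 higher without E12.5 replicate 3, and 75 were lower and 1 higher without both low libraries (median -0.87). Of 18861 genes tested without E12.5 replicate 3, 4242 were higher and 4191 lower in the second step, and 4461 and 4305 in the last.

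**Figure D2:**
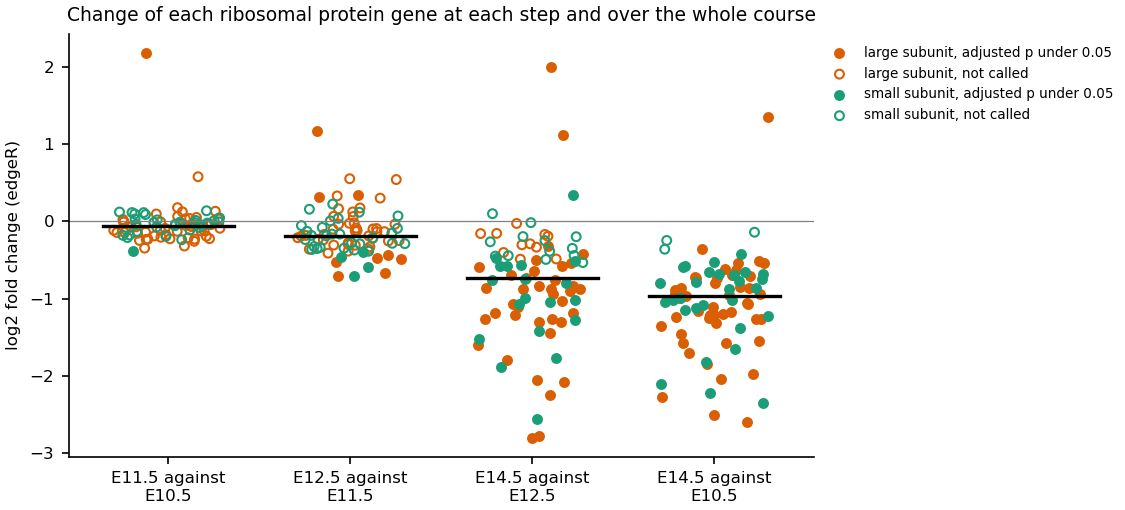
The log2 fold change of each tested member (y axis) in the 3 consecutive steps and over the whole course (x axis), coloured by subunit, with filled points for adjusted p under 0.05 and bars at the median (-0.06, -0.19, -0.73 and -0.97). Rpl39l, at 4.72 over the whole course, lies outside the plotted range. In the last step and over the whole course most points lie below 0.

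**Figure D3:**
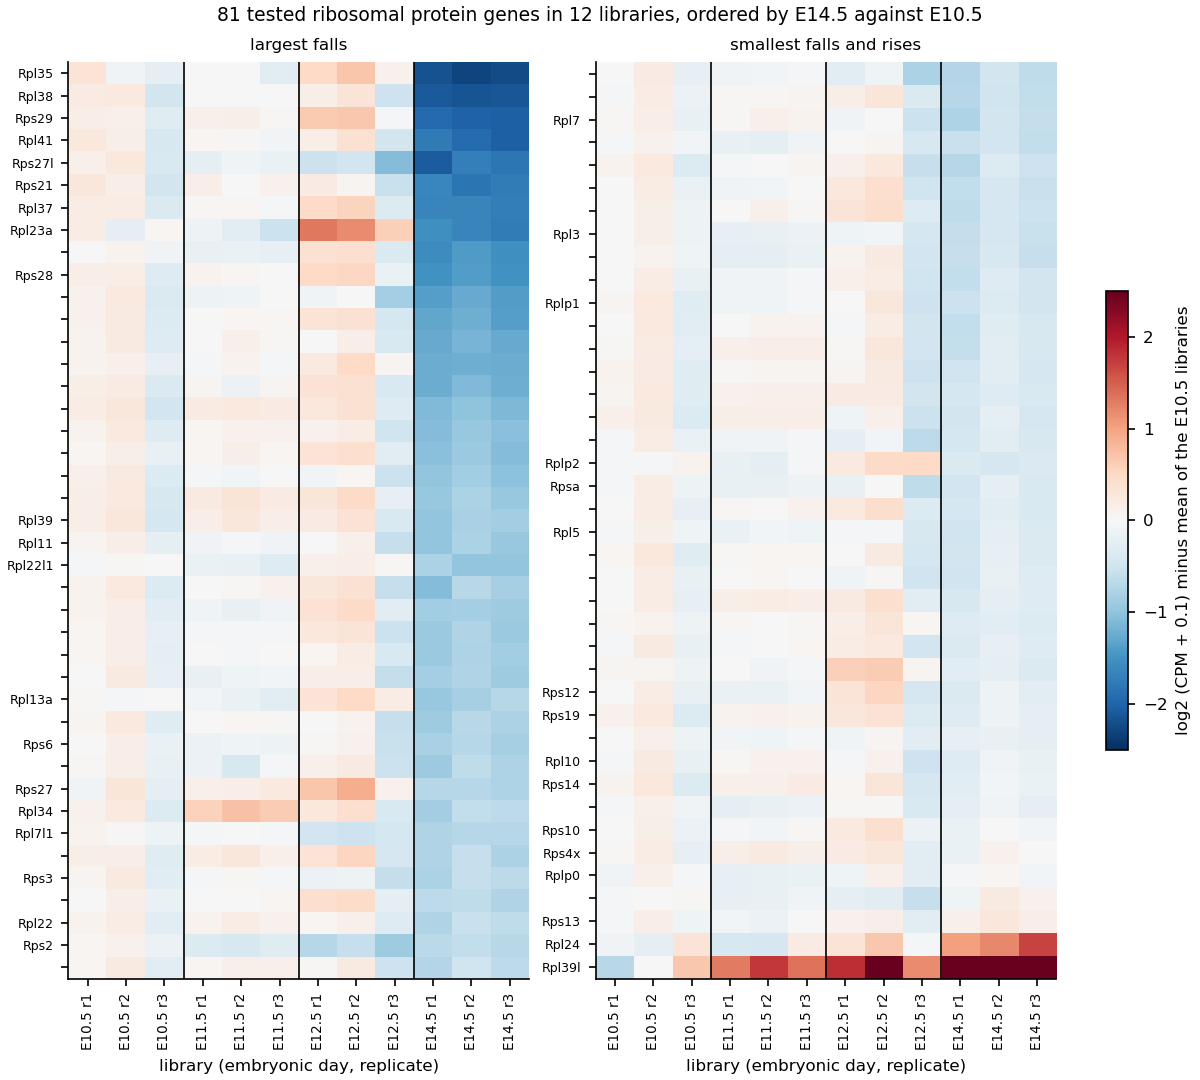
Level of each of the 81 tested members (rows, ordered by fold change between E14.5 and E10.5) in the 12 libraries (columns), with the rows of selected members named, as log2 of CPM plus 0.1 minus the mean of the E10.5 libraries, with colours ending at 2.5 in either direction. The 3 E14.5 columns are the lowest for most rows, and the 2 rows at one end, Rpl24 and Rpl39l, are higher at E14.5.

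The members with the largest falls over the whole course were Rpl35, Rpl38, Rps29, Rpl41, Rps27l and Rps21, all with short coding sequences. Rpl38 (chr11:114668524-114672331), the large subunit protein lost in Tail-short mice, had 362, 373 and 228 CPM at E10.5, 317, 316 and 315 at E11.5, 346, 394 and 220 at E12.5, and 73.1, 70.3 and 71.0 at E14.5. All E14.5 libraries lay under every earlier one, and the 3 E14.5 values nearly coincide. Its level averaged 71.5 ± 1.47 CPM at E14.5 and 321 ± 80.7 CPM at E10.5 (SD, n = 3 each), a log2 fold change of -2.51 ± 0.24 (SE; edgeR adjusted p = 6.3e-07). The last step alone was -2.25 ± 0.23 (adjusted p = 7.8e-06). Rps29, a protein of the head of the small subunit, had 399, 390 and 288 CPM at E10.5, 390, 394 and 362 at E11.5, 561, 564 and 343 at E12.5, and 92.0, 87.1 and 86.6 at E14.5. Its fold change over the course was -2.35 ± 0.20 (edgeR adjusted p = 3.0e-07), with its highest mean at E12.5 and no overlap between E14.5 and any earlier stage. Rpl41, the smallest ribosomal protein, averaged 246 ± 22.4 CPM at E14.5 and 944 ± 216 CPM at E10.5, a change of -2.28 ± 0.23 (edgeR adjusted p = 1.2e-06). Its coding sequence is 75 bases long. Rps21 averaged 139 ± 10.2 CPM at E14.5 and 472 ± 120 CPM at E10.5 (-2.11 ± 0.23, edgeR adjusted p = 2.4e-06).

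Rpl35 gave the most negative fold change, at a low count. It had 92.4, 68.9 and 61.6 CPM at E10.5, 73.2, 73.5 and 60.6 at E11.5, 104, 118 and 78.7 at E12.5, and 16.2, 14.9 and 15.4 at E14.5, a change of -2.59 ± 0.19 over the course (edgeR adjusted p = 6.0e-08). Of its exon bases 68.3% overlap other genes (Arpc5l and Wdr38), and alignments to more than 1 gene were listed apart from genes in the files, so its level is uncertain. Rpl23a had a peak at E12.5. It had 67.1, 50.6 and 61.2 CPM at E10.5, 54.0, 49.3 and 40.6 at E11.5, 147, 134 and 89.2 at E12.5, and 20.4, 18.7 and 17.6 at E14.5. It was the largest riser of the second step (1.16 ± 0.18, edgeR adjusted p = 0.00025) and the largest faller of the third (-2.80 ± 0.19, edgeR adjusted p = 2.6e-07). Its exons overlap Tlcd1 over 55.4% of their bases.

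At the other end, Rps13 of the small subunit was called in no step and not over the course. It had 456, 533 and 438 CPM at E10.5, 453, 428 and 478 at E11.5, 509, 533 and 391 at E12.5, and 521, 574 and 534 at E14.5, so the groups overlap. Its fold change was -0.14 ± 0.15 (edgeR adjusted p = 0.40), and the test over all 4 stages gave an adjusted p of 0.48. The value over the course depended on the setting: Rps13 was called lower without both low libraries (-0.24, edgeR adjusted p = 0.039), was at 0.19 with total counts (adjusted p = 0.15), and was called higher with the trend over transcript length removed (0.45, adjusted p = 0.00032). Rps4x, the X-linked small subunit protein, averaged 1821 ± 170 CPM at E14.5 and 1856 ± 259 at E10.5 (-0.36 ± 0.18, edgeR adjusted p = 0.081). It was called lower with no filter (-0.39), with the replicate block (-0.34), without E10.5 replicate 3 (-0.50), without E12.5 replicate 3 (-0.35) and without both (-0.50). It was near 0 and not called with total counts (-0.03, edgeR adjusted p = 0.87) and with the trend over transcript length removed (0.0061, adjusted p = 0.97). It was above 0 and not called with the covariate for alignments outside genes (0.18) and with length and GC trends removed (0.13).

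The P stalk of the large subunit, where translation factors dock, is made of Rplp0, Rplp1 and Rplp2, and all were called lower over the course. Rplp0, its base, had 2451, 2827 and 2500 CPM at E10.5, 2253, 2280 and 2310 at E11.5, 2414, 2828 and 2126 at E12.5, and 2497, 2692 and 2465 at E14.5. Its fold change of -0.35 ± 0.14 (edgeR adjusted p = 0.032) was -0.02 with total counts, where it was not called. Rplp1 averaged 984 ± 68.5 CPM at E14.5 and 1358 ± 254 at E10.5 (-0.80 ± 0.20, edgeR adjusted p = 0.0033). Rplp2 was a riser of the second step (0.35 ± 0.08, edgeR adjusted p = 0.0033) before falling in the third (-0.86 ± 0.08, adjusted p = 3.25e-06). It had 376, 443 and 448 CPM at E12.5 and 280, 270 and 307 at E11.5. Rplp2 was the member that stood highest in the low library E12.5 replicate 3 relative to its mates.

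Rpl5 and Rpl11 carry the 5S ribosomal RNA and, when free, bind the p53 regulator Mdm2. Rpl11 had 689, 785 and 711 CPM at E14.5 and 1429, 1538 and 1161 at E10.5 (-1.25 ± 0.19, edgeR adjusted p = 4.7e-05). Rpl5 averaged 1170 ± 115 CPM at E14.5 and 1505 ± 146 at E10.5 (-0.69 ± 0.15, edgeR adjusted p = 0.00084). Rps6, the small subunit protein phosphorylated downstream of mTOR, averaged 838 ± 37.1 CPM at E14.5 and 1448 ± 168 at E10.5 (-1.12 ± 0.18, edgeR adjusted p = 8.2e-05). Rpsa, also known as a laminin receptor, had the highest CPM of all members over the 12 libraries, with 2331 ± 190 at E14.5 and 3003 ± 347 at E10.5 (-0.70 ± 0.18, edgeR adjusted p = 0.0029).

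Rps2 differed in timing. It had 2592, 2676 and 2243 CPM at E10.5, 1978, 1902 and 2026 at E11.5, 1518, 1680 and 1345 at E12.5, and 1572, 1636 and 1544 at E14.5. The first 2 steps were called lower (-0.39 ± 0.13, edgeR adjusted p = 0.044, and -0.59 ± 0.13, adjusted p = 0.0027), while the last step was -0.02 ± 0.13 (adjusted p = 0.93). The call of the first step was lost in 9 of the 12 fits that left out 1 library, with values from -0.50 to -0.28. Rps2 gave the largest single part of the summed drop in CPM between E14.5 and E10.5 (3.41%), followed by Rpl7 (3.17%) and Rps3 (2.67%), and the 10 largest parts together made up 26.4%. Rpl34 had 663, 731 and 486 CPM at E10.5, 915, 1028 and 957 at E11.5, 738, 823 and 475 at E12.5, and 337, 405 and 391 at E14.5. Its E11.5 libraries lay above all others, but the first step missed the threshold (0.58 ± 0.21, edgeR adjusted p = 0.063), and the second was called lower (-0.71 ± 0.21, adjusted p = 0.015). Among the 10 members that fell in the second step were also Rps27l (-0.71), Rpl7l1 (-0.67), Rpl12 (-0.49), Rpl7, Rps3 and Rpl6.

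Among the related gene copies, or paralogs, 4 were tested beside their parents, and 1 of them rose. Rpl39l, a copy of Rpl39 known from the male germ line, had 0, 0.0630 and 0.157 CPM at E10.5, 0.296, 0.447 and 0.312 at E11.5, 0.479, 1.03 and 0.264 at E12.5, and 3.02, 1.77 and 2.77 at E14.5. All E14.5 libraries lay above all earlier ones, at a level far under that of any parent gene. Its fold change over the course was 4.72 ± 0.64 (edgeR adjusted p = 1.8e-05), on few counts at E10.5. The call of its first step (2.18 ± 0.74, adjusted p = 0.046) was lost in 9 of the 12 fits that left out 1 library, with values from 1.63 to 3.27. Rpl39, its parent, averaged 156 ± 10.4 CPM at E14.5 and 295 ± 72.3 at E10.5 (-1.26 ± 0.22, edgeR adjusted p = 0.00016).

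Rps27l, the copy of Rps27 known as a p53 target, had a lower mean CPM at each later stage. It had 198, 217 and 139 CPM at E10.5, 154, 169 and 162 at E11.5, 126, 131 and 85.1 at E12.5, and 42.5, 55.7 and 51.6 at E14.5 (-2.22 ± 0.21 over the course, edgeR adjusted p = 7.4e-07). Rps27 instead had its highest mean at E12.5 (501 ± 134 CPM) and averaged 198 ± 3.88 at E14.5 and 334 ± 65.9 at E10.5 (-1.09 ± 0.20, edgeR adjusted p = 0.00029). Windows of 100 bases shared with other transcripts made up 98.4% of Rps27 and 0% of Rps27l. Rpl7l1 averaged 145 ± 2.05 CPM at E14.5 and 241 ± 18.6 at E10.5 (-1.06 ± 0.09, edgeR adjusted p = 1.6e-07), with the larger part of the fall at the second step. Rpl7 averaged 1624 ± 173 CPM at E14.5 and 2479 ± 302 at E10.5 (-0.94 ± 0.17, edgeR adjusted p = 0.00025). Rpl22l1 averaged 19.0 ± 1.53 CPM at E14.5 and 35.8 ± 0.725 at E10.5 (-1.24 ± 0.10, edgeR adjusted p = 1.0e-07), and Rpl22, known to hold down the mRNA of this paralog, averaged 402 ± 28.6 CPM at E14.5 and 635 ± 104 at E10.5 (-0.99 ± 0.16, edgeR adjusted p = 0.00011). Rpl3 and Rpl10, parents of the untested Rpl3l and Rpl10l, were both called lower (-0.86 and -0.54).

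**Figure D4:**
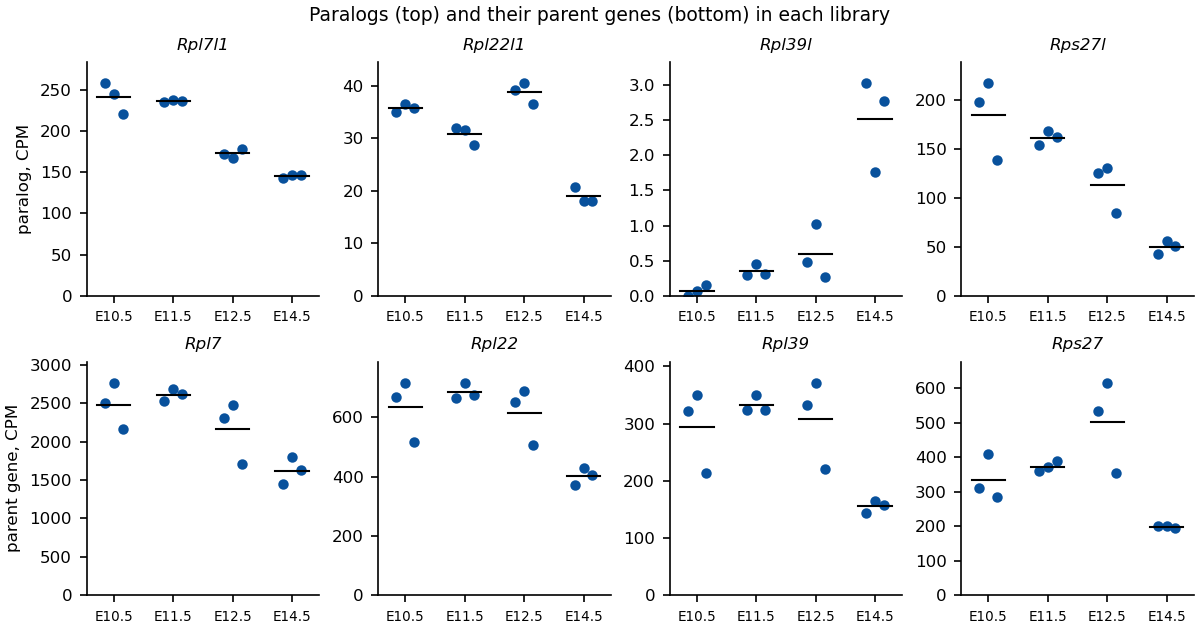
CPM (y axes from 0, each panel on its own scale) of 4 paralogs (top) and their parent genes (bottom) in the 12 libraries by embryonic day (x axes), with points for libraries and bars for stage means. Rpl39l is the panel that rises, to 1.77 to 3.02 CPM at E14.5, while the other 7 are lowest at E14.5.

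All 21 listed members whose genes are mutated in Diamond-Blackfan anaemia were called lower over the course, with a median of -1.20, where 93.8% of the tested members and 33.8% of all tested genes were lower and the members' median was -0.97. Rps19, the gene mutated most often in the disease, was near the weak end: it averaged 548 ± 36.8 CPM at E14.5 and 650 ± 130 at E10.5 (-0.58 ± 0.20, edgeR adjusted p = 0.019), a call lost with total counts (-0.25) and in 4 of the 12 fits that left out 1 library. Rps10 was the weakest (-0.42 ± 0.16, edgeR adjusted p = 0.029), and Rpl35, Rps29 and Rps28 (-1.82) the strongest. With total counts the calls of Rps10 (-0.08), Rps15a (-0.33) and Rpl8 (-0.21) were lost too, and that of Rps10 was lost in 4 of the 12 fits that left out 1 library. Of 18 members with known mouse phenotypes or special roles 17 were lower (94.4%, near the 93.8% of all tested members) and 1, Rpl24, was higher.

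Rpl24, mutated in Belly spot and tail mice, was listed at 0.520, 0.601 and 0.884 CPM at E14.5 and 0.188, 0.157 and 0.282 CPM at E10.5. The groups do not overlap, and the change was 1.35 ± 0.41 (edgeR adjusted p = 0.0097), but the call was lost without E14.5 replicate 3. Of its exon bases 71.5% overlap the transcript Gm28037, and 80.1% of its windows are shared with other transcripts, so its level here is not a measure of the whole gene. CPM per kilobase of transcript had a median of 1233 over the 81 tested members. Lowest were Rpl24 (0.494), Rpl39l (1.61), Rpl13a (15.6) and Rpl22l1 (56.3), and highest were Rps12 (2701), Rplp1 (2459), Rpl13 (2267) and Rps14 (2217). Exons of Rpl13a, Rpl22l1 and Rpl24 overlap other genes over 59.3%, 28.8% and 71.5% of their bases. Of the 15 members with under 20% shared windows and no exon overlap, 14 were lower and 1 higher over the course (median -1.01), and of the other 66, 62 were lower and 1 higher (median -0.95).

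To compare members with each other, counts were also tested relative to the summed counts of all members. Between E14.5 and E10.5, 14 members were higher and 29 lower relative to the family, with a median of -0.08, where 60.4% of all tested genes were higher and 5.61% lower. The members' own summed counts are the library size here, so the members together cannot rise or fall. A fall of the family raises the values of all other genes, so the shares of all genes are no background for the members' counts. Between E14.5 and E12.5 it was 16 higher and 33 lower, with 34.0% and 3.44% of all genes. Between E12.5 and E11.5 it was 9 higher and 6 lower (24.8% and 2.83% of all genes), and between E11.5 and E10.5 it was 1 member, higher (4.80% and 2.75% of all genes). The 1 member of the first step was Rpl34 (0.65, edgeR adjusted p = 0.0024). Among those higher relative to the family over the course were Rpl39l (5.56), Rpl24 (2.18), Rps13 (0.73 ± 0.12, edgeR adjusted p = 0.00010), Rps4x (0.52) and Rplp0 (0.51). Lower were Rpl35 (-1.72), Rpl38 (-1.60 ± 0.15, edgeR adjusted p = 6.3e-07), Rps29 (-1.47), Rpl41 (-1.38), Rps27l (-1.33) and Rps21 (-1.20). The mean share of family counts was 4.35% at E14.5 and 3.05% at E10.5 for Rplp0, and 0.122% at E14.5 and 0.371% at E10.5 for Rpl38.

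Over the course and in the last step, members with shorter coding sequences had the more negative fold changes by rank, though less so by value. Across the 81 tested members, coding length and log2 fold change had a Spearman correlation of 0.50 for E14.5 against E10.5 (Pearson 0.17) and 0.64 for E14.5 against E12.5 (Pearson 0.43). In the 15 members with little shared sequence the Spearman values were 0.58 over the course and 0.66 in the last step, with Pearson values of -0.03 and 0.28. With transcript length in place of coding length, the Spearman values over the 81 members were 0.295 over the course and 0.445 in the last step. For coding length the sign was opposite in the first step (Spearman -0.37) and in the second (-0.27). All points share the same libraries. Members with transcripts under 600 bases had a median of -1.21 over the course (29 of 31 lower), those of 600 to under 1000 bases -0.79 (29 of 32 lower) and those of 1000 to under 2000 bases -0.87 (15 of 15 lower). Those of 2000 to under 4000 bases had one of -1.06 (3 of 3 lower), so the medians are not ordered by class. Other protein-coding genes moved with length too: transcripts under 600 bases had a median of -0.72 (119 of 225 lower), 600 to under 1000 bases -0.42 (384 of 791 lower) and 4000 bases or more 0.16. In the low library E12.5 replicate 3, the members' log2 ratio to its mates had a Spearman correlation of 0.48 with coding length (Pearson 0.45). In E10.5 replicate 3 it was 0.54 by Spearman but 0.06 by Pearson. Rpl39l, with a coding sequence of 153 bases and few counts, was the highest member there (log2 ratio 2.32) and over the course (4.72). Its weight in the Pearson values was not tested. With each library's trend over transcript length removed, a setting added after seeing the data, 58 members were lower and 5 higher over the course (median -0.54), and in the last step 38 were lower and 10 higher (median -0.26). Of all 18365 tested genes 6395 were then lower and 6854 higher over the course, and 4580 lower and 4287 higher in the last step. Over the course Rps10, Rps12, Rps14 and Rplp2 were at 0.24, 0.07, 0.07 and 0.01 in that fit.

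**Figure D5:**
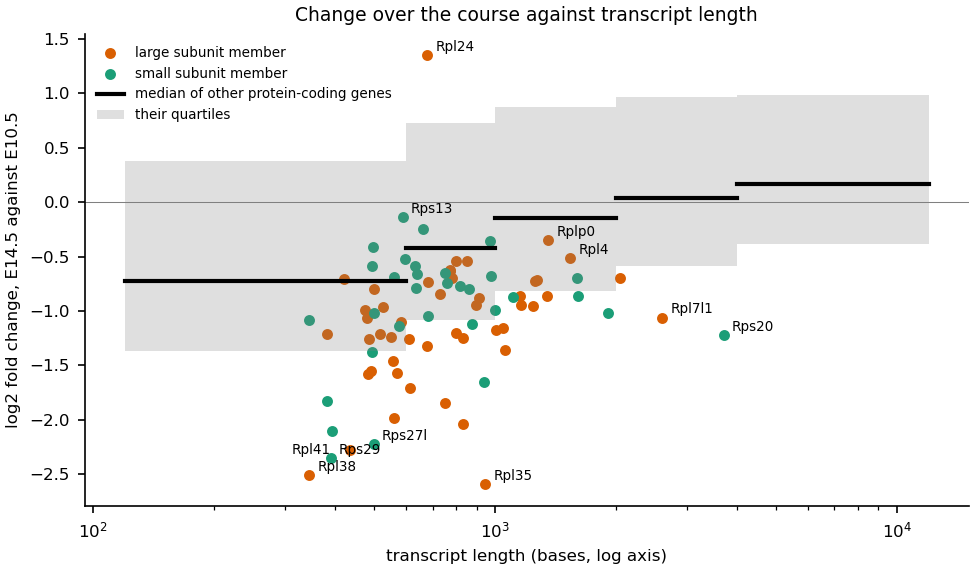
The log2 fold change between E14.5 and E10.5 (y axis) of members against transcript length in bases (x axis, log scale), coloured by subunit, with selected names. Black bars are medians and grey boxes the quartile range of other protein-coding genes in 5 length classes, whose medians run from -0.72 under 600 bases to 0.16 at 4000 bases or more; Rpl39l, at 4.72, lies outside the plotted range. Most members lie under the median of their class.

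Most other genes of translation listed were also lower at E14.5 than at E10.5, with other medians by step. In the second step 34 of 77 mitochondrial ribosomal proteins, 28 of 36 initiation factors, 13 of 16 ribosomal protein chaperones and 5S particle genes and 8 of 14 genes listed as elongation and termination factors were lower, with medians of -0.30, -0.41, -0.38 and -0.36. In the last step 67, 15, 10 and 3 of them were lower, in the same order, with medians of -0.61, -0.27, -0.32 and -0.12. Among all tested genes 22.2% were lower in the second step and 24.0% in the last. The 3 of 14 elongation and termination factors (21.4%) lie near that last share. Whether these sets moved with the members was not tested. Of the mitochondrial ribosomal proteins 75 were lower and 1 higher over the course (median -1.02), where 33.8% of all tested genes were lower and 36.6% higher. Of 36 initiation factors, 34 were lower and 1, the helicase Eif4a2, higher (median -0.86), with the largest falls in Eif2s1 (-1.44) and Eif2s2 (-1.38), subunits of the factor that brings the initiator tRNA, and in Eif2b3 (-1.32), part of its exchange factor. All 16 ribosomal protein chaperones and 5S particle genes were lower (median -1.05), led by Rrs1 (-1.27), Pwp1 (-1.24) and Nmd3 (-1.20). Of the 14 genes listed as elongation and termination factors 10 were lower and 2 higher. Eif5a, which relieves stalled ribosomes, was at -1.42 and Eef1e1 at -1.86, whereas Eef2, the translocase, was at 0.00 (edgeR adjusted p = 0.99) and Eef1a1, which delivers tRNA, at -0.32 (adjusted p = 0.10). Of 23 other transcripts listed with a terminal oligopyrimidine tract 17 were lower and 1 higher (median -0.72), led by Npm1 (-1.78), Snhg8 (-1.32) and Btf3 (-1.30). That list shares Eef2, Eef1a1, Eif4a2, Fau and Rack1 with the others. Of 5 ribosome proteins outside the rule 3 were lower, namely Fau (-0.89), which carries a small subunit protein, Rpl36al (-0.80) and Rack1 (-0.39), a scaffold on the small subunit.

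Among 17 genes that control ribosomal protein mRNA, 8 were lower and 2 higher (median -0.11), where 33.8% of all tested genes were lower and 36.6% higher. Mycn had 124, 116 and 126 CPM at E10.5, 73.8, 63.2 and 74.3 at E11.5, 38.5, 32.2 and 39.3 at E12.5, and 17.8, 20.4 and 18.8 at E14.5, lower at each later stage with no overlap (-3.01 ± 0.10 over the course, edgeR adjusted p = 1.3e-10). Eif4ebp1, the translation repressor under mTOR, was at -1.21, and Eif4ebp3 at 1.56 on levels under 1 CPM. Myc was at 0.17 (adjusted p = 0.19) and Larp1 at -0.11 (adjusted p = 0.32). Mycn was called lower in each of the 3 steps (-0.83, -1.16 and -1.02). Its part in the members' fall was not tested.

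The makeup of the tissue changed over the same stages. All 15 maxillary mesenchyme markers had counts, with summed levels of 1619 to 1714 CPM at E14.5 and 1486 to 2033 CPM at E10.5, while 13 of them were called lower and 1 higher over the course. Of all tested genes 33.8% were called lower and 36.6% higher over the course. Skeletal muscle markers (12 genes) summed to 2352 to 2932 CPM at E14.5 and 31.5 to 40.3 CPM at E10.5, bone and cartilage markers (12 genes) to 8262 to 10706 CPM at E14.5 and 428 to 681 CPM at E10.5, leukocyte markers (11 genes) to a mean of 262 CPM at E14.5 and 82.3 CPM at E10.5, and surface epithelium markers (10 genes) to 1441 to 2047 CPM at E14.5 and 498 to 614 CPM at E10.5. Cycling cell markers were all called lower over the course (14 of 14), with at least 5311 CPM at E10.5, at least 5111 CPM at E11.5, no more than 3791 CPM at E12.5 and no more than 3118 CPM at E14.5. Red cell markers (12 genes) averaged 2259 CPM at E14.5 and 3588 CPM at E10.5, neuron markers (12 genes) 208 CPM at E14.5 and 565 CPM at E10.5, and endothelium markers (10 genes) 593 CPM at E14.5 and 305 CPM at E10.5. Of the surface epithelium markers 5 were called higher and 4 lower over the course (median 0.16), so their sum does not describe the whole list. Red cell markers were 3 higher and 7 lower, neuron markers 2 and 9, and endothelium markers 7 and 1. Skeletal muscle markers were 12 higher and 0 lower, bone and cartilage markers 8 and 1 (10 tested), and leukocyte markers 10 and 0. None of these lists had a gene without counts. Their part in the members' fall was not tested.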

How the data were processed

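RNA was taken up in Trizol, and polyadenylated RNA went into libraries with a kit that marks no strand, per the labels' protocols. The submitters' processing notes name FastQC, STAR 2.7.3a, HTSeq 0.12.4 and mm10, without role or order. Nothing in the sources used here gives the annotation release, the strand setting or any filter. The authors deposited raw counts per Ensembl gene for 53801 genes, with 5 closing entries for alignments given to no gene. Those entries, 14.3% to 18.6% of alignments, entered no library size and no test. Multiply mapped alignments were 4.51% to 4.71% at E14.5 and 5.24% to 6.50% in the earlier libraries. GENCODE M21 (GRCm38) gave symbols to 53706 identifiers and none to 95, as well as coordinates and the length of 1 main transcript a gene.

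Counts were fitted with edgeR 4.0.16 in R 4.3.3 (filterByExpr with a minimum count of 10, TMM, 1 mean per stage over all 12 libraries, 8 residual degrees of freedom, biological coefficient of variation 0.142), with Benjamini-Hochberg adjustment over 18365 genes and a threshold of 0.05. TMM factors were 1.11 to 1.14 at E14.5 and 0.852 to 0.955 at E10.5. For levels relative to the family, the members' summed counts were the library size. The fit was tested on simulated data. No 2 libraries of a stage agreed within sampling noise (chi-square per degree of freedom at least 4.38).

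Members, gene lists and the rule for named genes (up to 6 rises and 6 falls per comparison, paralogs and parents, extremes of level, up to 3 called genes per other list) were chosen with earlier results of these data known. Genes named in other lists for their known role, such as Eef2 and Myc, fall outside that rule, and some members it names are not reported here. Alternatives were other scalings, filters and tests (DESeq2 1.42.0, limma-voom 3.58.1), a covariate, a replicate block, length and GC trends, and single libraries left out. Sequences are from RefSeq (GRCm38.p6), whose promoter table held 63 of the members.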

Additional observations from a re-analysis of the deposited data

Results flagged for a closer look

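Of the 6 pseudogenes that matched the symbol rule and were left out, 5 had counts. Rps4l, annotated as a transcribed processed pseudogene, had 26165 counts over the 12 libraries, at 61.9, 54.4 and 57.6 CPM at E14.5 and 71.6, 70.7 and 68.8 CPM at E10.5. Rps3a2 had 2796 counts (4.52 to 12.1 CPM), Rps3a3 had 598, Rpl6l had 473 and Rpl32l had 283. Rps12l1 had no count. Reads of a parent gene and of its copy may not be told apart in these counts.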

How the results depend on the processing

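In the order E11.5 against E10.5, E12.5 against E11.5, E14.5 against E12.5 and E14.5 against E10.5, members were 1, 3, 3 and 2 higher and 1, 10, 54 and 76 lower. In the first step 2 were higher with total counts, no filter, DESeq2, either length correction and without both low libraries, and 0 with limma-voom; 0 were lower with RLE factors, 2 with no filter, DESeq2 or the covariate, 7 with either length correction and 19 without both low libraries. In the second step 6 were higher and 4 lower with total counts, 26 lower with no filter, 5 and 23 with length removed, 6 and 22 with length and GC removed, and 14 higher without both low libraries. With the covariate 0 were higher and 0 lower, and the median of that step was 0.35, against -0.19. Of all 18365 tested genes 407 were higher and 286 lower in that step with the covariate, so few genes of any kind were called. In the last step 1 was higher with the covariate and 1 without both low libraries, 10 with length removed (median -0.26) and 9 with length and GC removed (median -0.21). Over the course 1 was higher with a minimum of 1 CPM, 0 with the covariate (21 lower, median -0.46), 5 with length removed (median -0.54) and 4 with length and GC removed (median -0.50), and the median was -0.63 with total counts. The test over all stages gave 49 of 81 members with the covariate, where 11147 of 18365 tested genes were called, a like proportion. Relative to the family, 5 were higher in the second step with TMM over the members. Without mitochondrial and globin genes the E11.5 share was 8.91%. Signs turned with the covariate for Rps27l (0.11), Rpl34 (0.0217) and Rpl12 (0.0558) in the second step and for Rps19 (0.14) and Rps14 (0.18) over the course; with length removed for Rps10 (0.24), Rplp2 (0.0078), Rps14 (0.0696) and Rps12 (0.0727); and with length and GC removed for Rps10 (0.11), Rps15a (0.11) and Rps12 (0.14). The cause of these moves was not tested. Same-numbered libraries of different stages correlated at -0.12 to 0.18 in their deviations from stage means, and other pairs at -0.23 to 0.23. Between E10.5 and E12.5 the same-numbered pairs were at 0.08, 0.18 and 0.13, and the other pairs at -0.13 to 0.01. Same-numbered pairs with an E14.5 library were at -0.12 to 0.04. Whether the numbers mark samples handled together was not tested. The replicate block gave 1, 4, 2 and 2 higher and 2, 17, 60 and 77 lower. Leaving out 1 library gave 0 to 2, 2 to 8, 1 to 3 and 1 to 2 higher, 0 to 1, 4 to 13, 44 to 72 and 70 to 78 lower, medians of -0.21 to 0.09, -0.33 to -0.0038, -0.84 to -0.60 and -1.11 to -0.83, and 67 to 79 over all stages. Relative to the family it gave 1 to 2, 2 to 12, 11 to 21 and 11 to 22 higher and 0 to 1, 1 to 9, 24 to 36 and 23 to 31 lower. The family's count of 22 came without E12.5 replicate 3, and the second step had 2 higher without E11.5 replicate 1, 2 or 3. Shares were 8.03% to 9.19%, 8.40% to 8.52%, 7.60% to 9.35% and 5.66% to 6.04% by stage, and E14.5 minus E10.5 was -3.32 to -2.15 percentage points.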
